A study of Homo sapiens with 6 samples.

Results

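The 10 genes described here encode ligands that tumour cells present to natural killer (NK) cells, T cells or macrophages, and that bind receptors other than PD-1. They are CD276, VTCN1, HHLA2, PVR, NECTIN2, CD47, LGALS9, ULBP1, ULBP2 and ULBP3. They were chosen by gene symbol, with earlier results of these data known. Each symbol matched 1 row of the 58302 genes in the deposited table. PC-3 is an established line of human prostate cancer cells that was grown from a metastasis in bone. The study's 3 control libraries came from PC-3 cells given a blank-vector lentivirus (called vector here), and the other 3 from PC-3 cells given a lentivirus for overexpression of BHLHE22, which encodes a transcription factor of the basic helix-loop-helix class. The labels do not name the promoter that drives the transgene, whether the cells were a clone or a pool, or whether replicates were grown as separate cultures. P-values thus reflect only how far these libraries varied, and that variation may be technical. Strand use in counting is not given in the sources used here.

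Ligands of this kind tune immune attack on tumour cells. ULBP1, ULBP2 and ULBP3 are stress-induced, MHC-like proteins that bind NKG2D, an activating receptor of NK cells and cytotoxic T cells. PVR (CD155) and NECTIN2 (CD112) are adhesion proteins of the nectin family that bind both the activating receptor CD226 and inhibitory receptors such as TIGIT. CD276 (B7-H3), VTCN1 (B7-H4) and HHLA2 (B7-H7) belong to the B7 family and are best known as inhibitors of T cells. CD47 binds SIRPA on macrophages and restrains phagocytosis, and LGALS9 encodes galectin-9, a secreted lectin that binds the T-cell receptor TIM-3.

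Total counts were between 12186723 and 15949537 per library. BHLHE22 itself had 1 read in each vector library and 98, 92 and 133 reads in the BHLHE22 libraries, a count ratio of 104 after scaling with an exact 95% interval of 35.4 to 509 that covers counting error only. The epithelial keratin genes KRT8 and KRT18 were present at 198 ± 19 and 153 ± 12 CPM (SD, n = 3) in vector cells, where CPM is the usual count relative to library size, here the TMM-scaled size. Of the prostate genes listed as low or absent in PC-3, KLK3 had 0 counts in all libraries, whereas TMPRSS2 was present at 161 ± 22 and 68.5 ± 6.6 CPM. Of 14 NK and T-cell marker genes, 8 had 0 counts, CD3E, NKG7 and PRF1 among them. Their summed level was 0.408 to 0.704 CPM in vector and 0.180 to 0.574 CPM in BHLHE22 libraries. Of 13 myeloid and B-cell markers, TYROBP, AIF1 and MS4A1 had 0 counts. The sum of that list was 57.4 to 65.2 CPM in vector and 46.8 to 54.1 CPM in BHLHE22 libraries, and CD68, which did not pass the test, made up most of it. CD14 and CD79A of that list fell, and the part of these markers in the results was not tested.

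Of the 8 ligand genes that could be tested, 5 were higher in BHLHE22 cells: VTCN1, CD47, ULBP3, NECTIN2 and CD276. ULBP1, ULBP2 and PVR did not pass the test, and 0 were called lower. LGALS9 and HHLA2 had too few reads to enter the test but were seen only in BHLHE22 libraries. A gene was called at a Benjamini-Hochberg adjusted p under 0.05 in edgeR's quasi-likelihood test over all 15945 tested genes. In that test 25.1% of all tested genes were called higher, 24.3% lower and 49.4% in either direction. Calls were thus common among genes of every kind, and nothing particular to the ligand genes is read from their count. Without vector replicate 1, vector replicate 2 or BHLHE22 replicate 2, 3 of them were called. In bulk libraries, more cells with a transcript and more RNA per cell cannot be told apart. The median log2 fold change of the 8 tested ligand genes was 0.44, beside 0.00 for all tested genes, and their range was -0.34 to 1.12. The groups did not overlap for 7 of the 8, all but PVR, where 60.5% of all tested genes showed no overlap. Because the genes were chosen with earlier results of these data known, neither the median nor the overlap is read as a trait of such ligands.

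**Figure D1:**
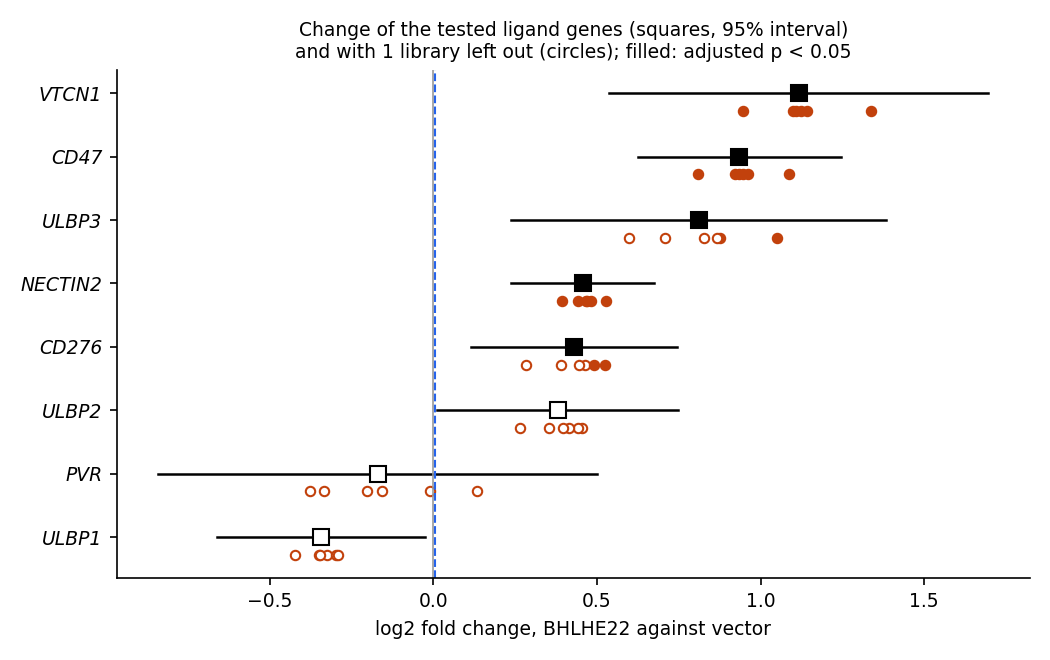
Log2 fold change (BHLHE22 against vector) of the 8 tested ligand genes as squares with 95% intervals, and the same value with each library left out in turn as circles. Filled symbols passed an adjusted p of 0.05, the grey line is 0 and the dashed line is the median of all tested genes. All circles of VTCN1, CD47 and NECTIN2 are filled, while CD276 and ULBP3 have open ones and PVR falls on either side of 0.

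Among the B7 family genes, CD276 was abundant and VTCN1 scarce, and both rose. CD276 (ENSG00000103855, chromosome 15, 73683966 to 73714518, GRCh38) had 34.3, 38.1 and 36.8 CPM in vector replicates 1 to 3 and 45.3, 59.0 and 42.9 CPM in BHLHE22 replicates 1 to 3. The groups did not overlap, and BHLHE22 replicate 2 stood above the other two of its group. The rise was 1.35-fold (log2 fold change 0.43, SE 0.14, edgeR quasi-likelihood adjusted p = 0.0316). That call was lost when some single libraries were left out. The adjusted p was 0.0964, 0.0536 and 0.0606 without vector replicates 1, 2 and 3 (edgeR quasi-likelihood). The log2 fold changes there were 0.39, 0.46 and 0.44, close to the value from all libraries. The log2 fold change fell to 0.28 without BHLHE22 replicate 2, with an adjusted p of 0.0953 (edgeR quasi-likelihood).

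VTCN1 (ENSG00000134258, chromosome 1, 117143587 to 117210960) showed the largest fold change of the 8 tested ligand genes, from a low base. Its counts were 18, 15 and 11 in the vector and 30, 31 and 38 in the BHLHE22 libraries. These correspond to 1.36, 1.02 and 0.775 CPM against 2.34, 2.22 and 2.28 CPM, with every BHLHE22 library above every vector library. The level rose 2.17-fold (log2 fold change 1.12, SE 0.25, 95% interval 0.54 to 1.70, edgeR quasi-likelihood adjusted p = 0.00785). It stayed called without any 1 library, with adjusted p between 0.00996 and 0.0270 (edgeR quasi-likelihood). Over the 6 libraries, the genes whose centred log2 CPM lay closest to VTCN1 among 13242 tested genes with a RefSeq symbol and a mean of at least 1 CPM were PMS2P1 and MDK, both at a root mean square difference of 0.11. Their own log2 fold changes were 0.95 and 1.01. PMS2P1 is a pseudogene of PMS2, so its counts are uncertain where copies share reads.

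HHLA2 (ENSG00000114455, chromosome 3, 108296490 to 108378285) had 0 counts in all 3 vector libraries and 3, 2 and 4 in the BHLHE22 libraries. All 9 reads were thus in BHLHE22 cells, 2.91-fold higher when the vector group is set to a floor of 3 counts over the group. That fold leaves out the counting error of the 9 reads. At 0.206 ± 0.054 CPM (SD, n = 3) it was the scarcest of the 10 genes in BHLHE22 cells. An exact 2-sided permutation test of the CPM over libraries gave p = 0.1, the smallest that 3 against 3 allows. With no filter beyond 1 count, 12.5% of 31773 genes were called higher in the edgeR test, and HHLA2 was one of them with an adjusted p = 0.0323. Since HHLA2 had no vector reads, a call could only be higher.

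The upstream sequence of VTCN1 is shown because this gene had the largest fold change and, alone among the 5 called genes, an E-box there. E-boxes, CANNTG on both strands, are the core motif that basic helix-loop-helix factors bind, and CAGCTG is one form of it. The sequence is RefSeq's for GRCh38.p14, minus strand, chr1:117210961-117211177, cut where the annotated gene begins, with the E-box in capitals.
VTCN1: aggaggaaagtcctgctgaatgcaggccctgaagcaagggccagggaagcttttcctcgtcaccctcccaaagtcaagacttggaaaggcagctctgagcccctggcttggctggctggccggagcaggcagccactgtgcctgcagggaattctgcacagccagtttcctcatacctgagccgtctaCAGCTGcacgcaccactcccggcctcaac
The E-box starts 62 bases before the RefSeq start. All 10 genes matched the promoter table, with 13 windows because CD276 and HHLA2 have several starts. In the 250 bases before the start, 5 of the 10 genes had a CANNTG match: VTCN1, HHLA2, PVR, LGALS9 and ULBP1. The genes with a match were 1 of the 5 called genes and 4 of the other 5. Of those others, HHLA2 and LGALS9 were not tested and had reads only in BHLHE22 libraries. Counted by window, 5 of the 13 held a match. Of all 35116 windows of the same length, 61.8% held CANNTG and 14.0% held CAGCTG. A match describes letters only.

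Of the nectin pair on chromosome 19, NECTIN2 rose and PVR did not pass the test. NECTIN2 (ENSG00000130202, 44846175 to 44889228) had 62.5, 67.7 and 55.7 CPM in the vector and 83.1, 87.8 and 84.2 CPM in the BHLHE22 libraries. The 3 BHLHE22 values lay close together, above every vector value. The rise was 1.37-fold (log2 fold change 0.46, SE 0.09, edgeR quasi-likelihood adjusted p = 0.00559) and was called in every setting with 1 library left out.

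PVR (ENSG00000073008, 44643798 to 44663583) varied more within groups than any other of the 8 tested ligand genes in BHLHE22 cells and in vector cells. Its level was 52.4, 36.1 and 25.9 CPM in the vector and 41.7, 26.5 and 33.6 CPM in the BHLHE22 libraries. The highest and the lowest of the 6 values were both in vector libraries, and the groups overlapped fully. The coefficient of variation was 35.0% in vector and 22.4% in BHLHE22 cells. The log2 fold change was -0.17 with a 95% interval of -0.84 to 0.50 (edgeR quasi-likelihood adjusted p = 0.648), so a fall to 0.559-fold or a rise to 1.42-fold lay within it. Without vector replicate 1 the sign turned, with a log2 fold change of 0.13. PVR shares 121 exon bases with CEACAM19, which had 322 counts over all libraries against 3055 for PVR.

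Whether the 2 nectin genes differed in response was tested as the ratio of their counts within each library. The log2 ratio of NECTIN2 to PVR was 0.25, 0.91 and 1.10 in the vector and 0.99, 1.73 and 1.32 in the BHLHE22 libraries. These ranges overlapped, and the difference of 0.59 gave p = 0.2 in an exact 2-sided permutation test (adjusted p = 0.267 over 4 such pairs).

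CD47, the most abundant of the 10 genes by CPM, nearly doubled. CD47 (ENSG00000196776, chromosome 3, 108043298 to 108091025) had 105, 85.9 and 126 CPM in vector replicates 1 to 3 and 196, 201 and 207 CPM in the BHLHE22 replicates. The vector libraries spread over a wide range and the BHLHE22 libraries over a narrow one, far above it. The rise was 1.91-fold (log2 fold change 0.94, SE 0.13, 95% interval 0.63 to 1.24, edgeR quasi-likelihood adjusted p = 0.00115). Leaving out any 1 library gave log2 fold changes of 0.81 to 1.09, all called. By p-value CD47 was number 1788 of the 15945 tested genes, ahead of the other ligand genes.

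LGALS9 (ENSG00000168961, chromosome 17, 27629798 to 27649560) had 0 counts in all 3 vector libraries and 8, 11 and 9 in the BHLHE22 libraries. Against a floor of 3 counts over the vector group it was 9.06-fold higher, at 0.651 ± 0.127 CPM (SD, n = 3) in BHLHE22 cells. The counting error of its BHLHE22 reads is left out of that fold. An exact 2-sided permutation test gave p = 0.1, the smallest that 3 against 3 allows. With no filter beyond 1 count it was called higher in the edgeR test (adjusted p = 0.000472), as were 12.5% of 31773 genes. Since LGALS9 had no vector reads, a call could only be higher, and that p-value is no separate support. Some reads of LGALS9 may fit other genes. Of the 50-base words of its transcripts, 13.2% also occur in transcripts of other genes, LGALS9C, LGALS9B and the overlapping gene AC015688.4 among them. LGALS9C and LGALS9B were listed at 0 in all 6 libraries. So was AC015688.4, which shares 294 exon bases with LGALS9 on the same strand. The authors' handling of reads that fit several genes is not given in the sources used here.

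**Figure D2:**
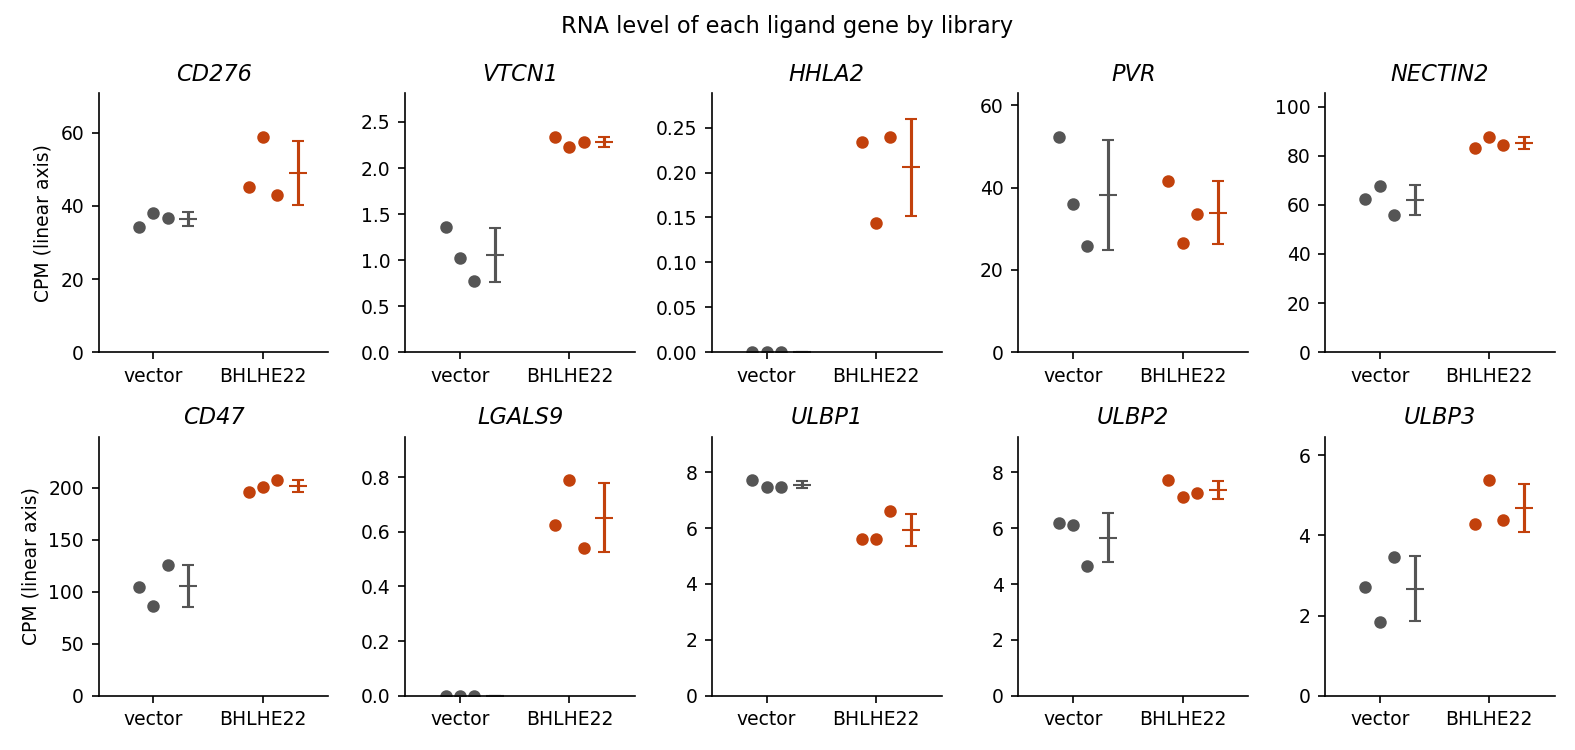
CPM of each of the 10 ligand genes (linear axis from 0, a separate scale per panel) in the 3 vector libraries (grey) and the 3 BHLHE22 libraries (orange), with mean and SD beside the points. Groups are apart in every panel except PVR, ULBP1 is the only panel with lower BHLHE22 points throughout, and LGALS9 and HHLA2 are at 0 in the vector libraries.

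The 3 NKG2D ligand genes lie within 1 cluster on chromosome 6, and only ULBP3 passed the test. ULBP3 (ENSG00000131019, 150063150 to 150069095) rose from 2.72, 1.84 and 3.45 CPM in the vector to 4.29, 5.38 and 4.38 CPM in the BHLHE22 libraries. Every BHLHE22 value was above every vector value. The rise was 1.75-fold (log2 fold change 0.81, SE 0.25, edgeR quasi-likelihood adjusted p = 0.0277). Its counts were low, 27 to 75 per library, and the call was easily lost. The adjusted p was 0.0672 and 0.0624 without vector replicates 1 and 2, and 0.0881 and 0.0512 without BHLHE22 replicates 2 and 3 (edgeR quasi-likelihood).

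ULBP2 (ENSG00000131015, 149942000 to 149949235) had 6.20, 6.12 and 4.65 CPM in the vector and 7.73, 7.10 and 7.26 CPM in the BHLHE22 libraries. The groups did not overlap, but the log2 fold change of 0.38 did not pass the test (95% interval 0.01 to 0.75, edgeR quasi-likelihood adjusted p = 0.0813). With unscaled library sizes, a setting that shifts all genes up by 0.15, it was called (log2 fold change 0.53, edgeR adjusted p = 0.0228).

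ULBP1 (ENSG00000111981, 149964007 to 149973710) was the only one of the 10 genes with lower values in all BHLHE22 libraries than in any vector library. It had 7.71, 7.48 and 7.47 CPM in the vector and 5.62, 5.60 and 6.60 CPM in the BHLHE22 libraries. The log2 fold change was -0.34 (95% interval -0.66 to -0.03), and it did not pass the test (edgeR quasi-likelihood adjusted p = 0.0695).

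The summed CPM of the 3 genes was 16.6, 15.4 and 15.6 in the vector and 17.6, 18.1 and 18.2 in the BHLHE22 libraries, a ratio of means of 1.13. The log2 ratio of ULBP3 to ULBP1 within a library was -1.48, -1.99 and -1.10 in the vector and -0.38, -0.06 and -0.58 in the BHLHE22 libraries, a difference of 1.18. For ULBP2 to ULBP1 the log2 ratio was -0.31, -0.29 and -0.68 against 0.45, 0.34 and 0.14, so that ULBP1 had more reads than ULBP2 in every vector library and fewer in every BHLHE22 library. Both ratios separated the groups and gave p = 0.1 in exact 2-sided permutation tests, the smallest 3 against 3 allows (adjusted p = 0.2 over 4 pairs). The ratio of ULBP3 to ULBP2 overlapped between groups (p = 0.3, exact permutation test).

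The ULBP genes and their RAET1 relatives are close in sequence, which limits how their reads can be told apart. Of the 50-base words of ULBP2 transcripts, 32.2% also occur in other genes, mostly RAET1L (29.4%) and RAET1G (11.6%). That share was 12.4% for ULBP3 and 6.85% for ULBP1, mostly with RAET1K. A coding stretch of 60 bases, from GENCODE release 29 transcripts and counted from the start codon, shows this. It was chosen as the stretch of ULBP2 identical in RAET1L with the fewest mismatches to the other 3 genes, and covers coding bases 139 to 198 (142 to 201 in ULBP3). Capitals mark bases that differ from ULBP2.
ULBP2: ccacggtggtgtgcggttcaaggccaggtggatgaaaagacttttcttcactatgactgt
RAET1L: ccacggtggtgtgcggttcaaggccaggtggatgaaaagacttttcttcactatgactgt
RAET1G: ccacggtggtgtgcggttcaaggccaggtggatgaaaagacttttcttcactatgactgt
ULBP1: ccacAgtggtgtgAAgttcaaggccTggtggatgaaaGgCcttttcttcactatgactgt
ULBP3: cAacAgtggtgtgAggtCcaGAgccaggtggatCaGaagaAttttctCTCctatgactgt
RAET1L and RAET1G have 0 mismatches to ULBP2 in this stretch, ULBP1 has 6 and ULBP3 has 12. RAET1L itself rose from 7, 4 and 5 to 13, 15 and 16 reads, and RAET1G had 49, 46 and 50 against 36, 38 and 40. Neither the read length nor the counting of ambiguous reads is given in the sources used here.

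The upstream sequences of the 3 genes are shown because these genes share a receptor while only ULBP3 was called. They are RefSeq's for GRCh38.p14, read in each gene's direction, and CANNTG matches are in capitals. The windows are chr6:149963693-149963942 on the plus strand for ULBP1, chr6:149941764-149941999 on the plus strand for ULBP2 and chr6:150069122-150069371 on the minus strand for ULBP3.
ULBP1: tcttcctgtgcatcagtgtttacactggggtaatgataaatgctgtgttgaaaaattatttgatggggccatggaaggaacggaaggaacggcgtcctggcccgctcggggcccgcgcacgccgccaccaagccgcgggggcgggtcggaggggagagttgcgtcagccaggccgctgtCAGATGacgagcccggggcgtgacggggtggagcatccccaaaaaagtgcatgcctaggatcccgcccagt
ULBP2: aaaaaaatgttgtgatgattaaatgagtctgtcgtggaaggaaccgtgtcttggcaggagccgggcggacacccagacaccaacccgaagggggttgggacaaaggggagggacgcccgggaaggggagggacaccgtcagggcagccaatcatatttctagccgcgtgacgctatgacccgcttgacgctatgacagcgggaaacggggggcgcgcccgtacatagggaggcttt
ULBP3: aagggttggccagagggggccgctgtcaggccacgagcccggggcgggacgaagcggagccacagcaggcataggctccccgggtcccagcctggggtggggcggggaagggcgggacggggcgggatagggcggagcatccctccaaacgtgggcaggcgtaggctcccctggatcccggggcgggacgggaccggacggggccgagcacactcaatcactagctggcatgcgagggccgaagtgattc
ULBP1 had 1 CANNTG match, 71 bases before its start, while none was found before ULBP2 or ULBP3. The GC box GGGCGG, searched on both strands, occurred 6 times before ULBP3, 2 times before ULBP1 and 1 time before ULBP2, and 42.6% of all windows hold at least 1.

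Levels of different genes were compared per kilobase of annotated exons. In vector cells the order was NECTIN2 at 16.5 ± 1.6, CD47 at 12.8 ± 2.4, PVR at 10.8 ± 3.8, CD276 at 6.57 ± 0.34, ULBP2 at 4.19 ± 0.65, ULBP3 at 2.70 ± 0.82, ULBP1 at 2.40 ± 0.04 and VTCN1 at 0.348 ± 0.097 CPM per kilobase (SD, n = 3). Neighbours overlapped between NECTIN2 and CD47, between CD47 and PVR, between ULBP2 and ULBP3 and between ULBP3 and ULBP1. In BHLHE22 cells CD47 was first at 24.5 ± 0.7 and NECTIN2 second at 22.7 ± 0.7, with no overlap between them. PVR and CD276 followed at 9.64 ± 2.16 and 8.85 ± 1.57 and overlapped each other, as did ULBP2 and ULBP3 at 5.46 ± 0.24 and 4.74 ± 0.61. Then came ULBP1 at 1.89 ± 0.18, VTCN1 at 0.754 ± 0.019, LGALS9 at 0.114 ± 0.022 and HHLA2 at 0.0568 ± 0.0149 CPM per kilobase.

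**Figure D3:**
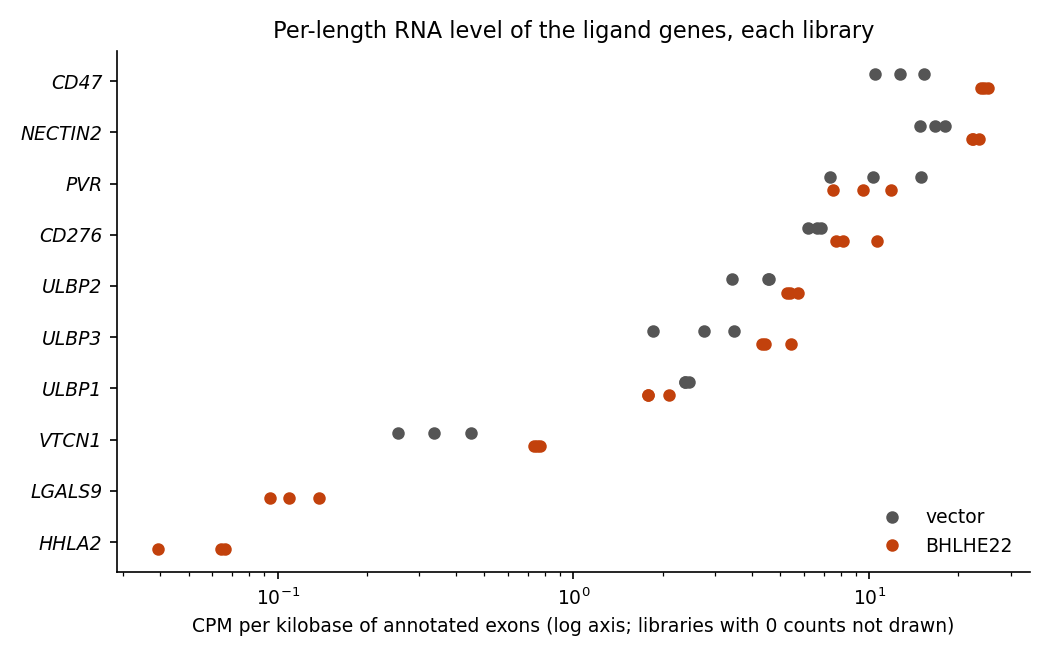
CPM per kilobase of annotated exons (log axis) of the 10 ligand genes in each vector (grey) and BHLHE22 (orange) library, ordered by the mean in BHLHE22 cells. CD47 and NECTIN2 are at the top near 24.5 and 22.7 in BHLHE22 cells, and LGALS9 and HHLA2 have no vector points because their counts were 0.

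The order depends on the length used. The authors' deposited FPKM values rest on longer lengths for several of these genes, 2.66 times the annotated exon length for CD276, 2.20 times for LGALS9 and 2.00 times for VTCN1, but the same length for ULBP1 and ULBP2. On the deposited FPKM scale CD276, at 2.34 ± 0.11 in vector and 3.49 ± 0.60 in BHLHE22 cells, was below ULBP2 at 3.97 ± 0.54 and 5.73 ± 0.27 (SD, n = 3).

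Genes related to these ligands changed in both directions. In 7 related lists with 78 genes, 46 were tested, of which 15 rose and 10 fell, a called share of 54.3% beside 49.4% of all tested genes. Some of these, PDCD1LG2 and QPCT among them, had enough reads to enter the test only in the group where they were higher. The 5 other NKG2D ligand genes included 2 that rose of 4 tested (median 0.72), where 25.1% of all tested genes were called higher. The 2 that rose, RAET1E and RAET1L, had enough reads to enter the test only through the BHLHE22 libraries. For them a call of lower was hardly possible, so nothing is read from that count. RAET1E, which encodes a further ULBP-type protein, had 3 counts in vector and 41 in BHLHE22 cells, a ratio of 13.3 with an exact 95% interval of 4.23 to 66.9 for counting error only. All 3 vector reads were in replicate 3, and the fitted log2 fold change of 3.58 was 6.77 without it, a value that depends on the prior count. RAET1L rose by a log2 fold change of 1.39 (edgeR quasi-likelihood adjusted p = 0.0106; 0.0681 with DESeq2). MICA, the best known NKG2D ligand gene, had a log2 fold change of 0.05 and did not pass. MICB had 2 reads in all. Both lie in a part of chromosome 6, from HLA-F to HLA-DPB1, where 64 of 120 protein-coding genes (53.3%) were listed at 0 against 14.0% in the rest of the chromosome, and the part of this in their counts was not tested.

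Of 11 tested genes among other B7 and butyrophilin ligands, 7 rose and 0 fell, with a median log2 fold change of 0.78. Over all tested genes, 25.1% were called higher and 24.3% lower. PDCD1LG2, counted among the 7, had no vector reads, so it entered the test through BHLHE22 libraries only and could only be called higher. Without BHLHE22 replicate 2, 4 rose. PDCD1LG2 and CD274, the ligand genes of PD-1, had 0 against 165 counts (53.4-fold against a floor of 3) and 79 against 356 counts. The 53.4-fold value leaves out the counting error of the 165 reads. NCR3LG1, which encodes the NKp30 ligand B7-H6, rose from 26, 42 and 28 to 47, 87 and 119 reads (log2 fold change 1.33, edgeR quasi-likelihood adjusted p = 0.00703). BTN3A1, a butyrophilin gene needed for activation of gamma-delta T cells, rose by a log2 fold change of 0.87.

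Among other nectins and nectin-like genes, 1 of 4 tested rose and 1 fell (median 0.06), where 49.4% of all tested genes were called. NECTIN1 rose by a log2 fold change of 0.39 (edgeR quasi-likelihood adjusted p = 0.0272), a call lost without vector replicates 1 or 2 (0.0713 and 0.0787) and without BHLHE22 replicates 1 or 2 (0.0687 and 0.0932). CADM2, an adhesion gene, fell from 36.4 ± 4.0 to 1.78 ± 0.54 CPM (SD, n = 3). Of 9 other galectin genes only 3 were tested and 6 had 0 counts. LGALS3 rose from 105 ± 10 to 137 ± 8 CPM (log2 fold change 0.38, edgeR quasi-likelihood adjusted p = 0.0124). LGALS1, by far the most abundant of the galectins, had a log2 fold change of 0.21 and did not pass, though it did with unscaled library sizes or without BHLHE22 replicate 3 (adjusted p = 0.0111 and 0.0278, edgeR quasi-likelihood).

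The remaining ligands of NK and T cells split, with 3 that rose and 4 that fell of 14 tested (median -0.05). Of all tested genes, 49.4% were called. CLEC2B, which encodes the NKp80 ligand AICL, rose by a log2 fold change of 1.38 and the B-cell and myeloid costimulatory receptor gene CD40 by 0.85. Lower were the costimulatory ligand genes TNFSF4 (OX40 ligand), with a log2 fold change of -1.59, and TNFSF9 (4-1BB ligand), with -1.05. Also called were ICAM1, higher by 0.56, and CLEC2D, lower at -0.97. CD70 and CD58 of this list did not pass (log2 fold changes 0.12 and -0.19). CD24, a phagocytosis-restraining gene like CD47, fell from 91.8 ± 12.9 to 52.9 ± 2.0 CPM (log2 fold change -0.80, edgeR quasi-likelihood adjusted p = 0.00111) while CD47 rose. HLA-E and HLA-G were listed at 0 and lie in the part of chromosome 6 described above.

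**Figure D4:**
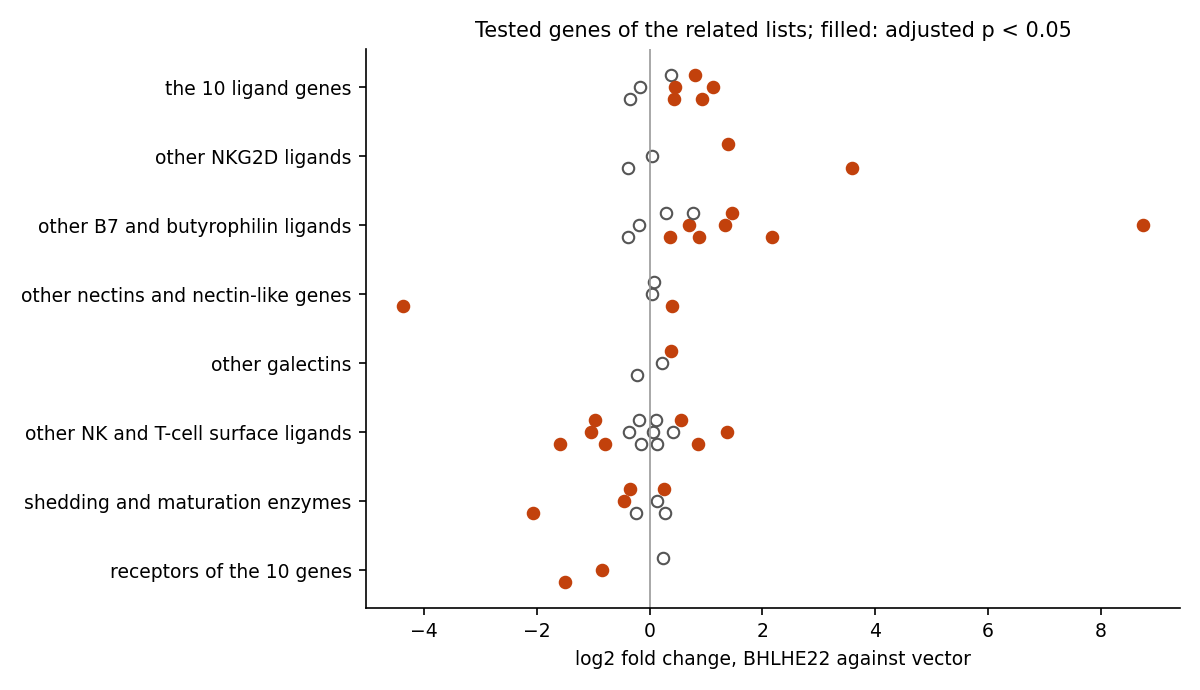
Log2 fold change (BHLHE22 against vector) of each tested gene in the 10 ligand genes and in 7 related lists, filled where the adjusted p was under 0.05. Points are offset vertically only for legibility, PDCD1LG2 is the point far to the right and CADM2 the one far to the left. The position of PDCD1LG2 depends on the prior count of the fit, since its vector counts were 0.

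Of 7 tested genes for enzymes that act on the ligand proteins, 1 rose and 3 fell (median -0.25), where 49.4% of all tested genes were called, and with unscaled library sizes 3 rose and 1 fell. QPCT and QPCTL encode glutaminyl cyclases, and that of QPCTL modifies CD47 so that SIRPA can bind it. QPCT fell from 22, 23 and 21 to 5, 5 and 6 reads. QPCTL had a log2 fold change of -0.45 (edgeR quasi-likelihood adjusted p = 0.0447), and its call was lost in 8 of 13 other settings. ADAM17, a protease that sheds surface proteins, NKG2D ligands among them, fell by 0.35 on the log2 scale and the protease gene ADAM9 rose by 0.26 (edgeR quasi-likelihood adjusted p = 0.0187 and 0.0421). The calls of both were lost in several settings. Of the receptors of the 10 genes, 3 of 12 were tested, and KLRK1, the gene of NKG2D, had 3 reads in all. CD226 and CD96 had 58 and 110 reads in vector and 21 and 63 in BHLHE22 cells, and their calls as lower were also lost in several settings. SIRPA, the receptor of CD47, was present in the PC-3 cells themselves, with 740 to 1148 reads per library, and did not pass the test.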

How the data were processed

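RNA was measured in 6 libraries of PC-3 cells, 3 with a blank vector and 3 with BHLHE22. The authors deposited 1 table with whole-number read counts per gene and FPKM values. Tools listed in the submitters' processing notes are HISAT2 2.1.0, StringTie 1.3.4b, CASAVA 1.8 and edgeR (no version), and the builds listed are hg38 and GRCh38. What each did, the strand setting and the read length: not given in the sources used here. Columns headed control were taken as the vector libraries. Each deposited FPKM followed from the count, the library total and a fixed length per gene (within 0.1% for 100% of 26866 genes). Positions were identical to GENCODE release 29 for 97.5% of 58039 shared genes; that of CD47 differed.

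Genes kept by filterByExpr (15945) were scaled by TMM and tested with edgeR 4.0.16 in R 4.3.3 (quasi-likelihood, robust dispersions, group as the only term, 2-sided, Benjamini-Hochberg over all tested genes, threshold 0.05). CPM values are relative to the TMM-scaled library size; the common biological coefficient of variation was 17.0%. The SE is the log2 fold change divided by the square root of F, and 95% intervals use the test's degrees of freedom. Other settings tried were a replicate block, DESeq2 size factors or unscaled library sizes, DESeq2 1.42.0, limma-voom (limma 3.58.1), no filter beyond 1 count, 1 CPM in 3 libraries, each library left out, testing for changes over 1.2-fold and a threshold of 0.01. The procedure was tested on simulated data with far fewer changed genes than these, where the share of false calls was above the nominal level and most of the smaller changes were not called. Within-library ratios used counts plus 1.

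Named genes are the 10 ligand genes, up to 4 called genes with the smallest p per related list, and the 2 genes closest in pattern to each called ligand gene with a log2 fold change of at least 1 in size. Other genes (MICA, MICB, RAET1G, LGALS1, SIRPA, KLRK1, TNFSF9, ICAM1, CLEC2D, CD70, CD58, HLA-E, HLA-G and the markers) were named after their values were seen. The ligand genes and lists were chosen with earlier results of these data known. Marker lists were NK and T cells, myeloid and B cells, epithelial and PC-3 genes, and prostate genes low or absent in PC-3. Of the 6 epithelial genes, 2 rose (EPCAM and VIM) and 2 fell (KRT8 and KRT18). Of the prostate genes, TMPRSS2 fell, and some members of that list are not reported here.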

Additional observations from a re-analysis of the deposited data

How the results depend on the processing

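No ligand gene was called lower in any setting tried, and VTCN1, CD47 and NECTIN2 were called in each fit tested against no change. The number of ligand genes called higher was 5, and 3 to 5 with 1 library left out. It was 3 with an adjusted p under 0.01 or in the test against a 1.2-fold change, and 4 with the replicate block. With unscaled library sizes it was 6, and with no filter beyond 1 count 7, LGALS9 and HHLA2 included. Over all genes 4962 of 7876 calls remained at 0.01, and 6303 to 7698 were called with 1 library left out. Log2 fold changes with 1 library left out ranged from 0.28 to 0.52 for CD276, from 0.60 to 1.05 for ULBP3, from 0.26 to 0.45 for ULBP2, from -0.42 to -0.29 for ULBP1 and from -0.38 to 0.13 for PVR, with the positive value without vector replicate 1; the cause was not tested. With unscaled library sizes ULBP2 was called at 0.53. Without the low-count filter the fitted log2 fold changes were 6.23 for LGALS9 and 4.63 for HHLA2; they depend on the prior count and are no bounds. The log2 fold change of MICA was -0.064 to 0.16 with 1 library left out, negative without vector replicate 3. The 25 calls in the 7 related lists were 16 to 25 with 1 library left out. Whether same-numbered libraries were handled as pairs is not known. Deviations from the group means correlated at 0.006, -0.026 and 0.016 for same-numbered libraries and at -0.041 to 0.040 for the others. Such values cannot exclude pairing. With the replicate block, the log2 fold change of ULBP3 was 0.83 and its call was lost (edgeR quasi-likelihood adjusted p = 0.0546), as was that of NECTIN1 (0.0591); over all genes 7292 were called. HHLA2 and LGALS9 had too few reads for the low-count filter.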
